A study of Mus musculus with 9 samples.

Results

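The Dlx and Msx genes are homeobox transcription factors that pattern the jaw and the teeth. They were chosen here by gene symbol, 8 genes of the 27179 in the count table: *Dlx1*, *Dlx2*, *Dlx3*, *Dlx4*, *Dlx5*, *Dlx6*, *Msx1* and *Msx2*. All 8 passed the filter on low counts, which left 16329 genes for testing. Poly(A) RNA was measured in whole mandibles, ground together with their teeth, from 5 WT mice and 4 mice labelled *FcγRIIB*-/-, which lack the inhibitory Fc receptor by label. The mice were of strain C57BL/6, aged 6 months and described as males, no treatment is labelled, and each library is 1 mouse. The mandible is a mixture of bone, marrow, teeth, ligament and soft tissue, so that fewer cells of a type and less RNA per cell cannot be told apart.

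The Dlx genes lie in the genome as 3 convergently arranged pairs, and in the embryo their nested expression along the pharyngeal arch tells upper from lower jaw, with *Dlx5* and *Dlx6* acting below endothelin signaling to set lower jaw identity. The Msx genes are induced by bone morphogenetic proteins and act in the exchange of signals between tooth epithelium and mesenchyme. In the formed jaw, *Dlx3* is known for its role in enamel, dentin, bone and epidermis, *Dlx5* for promoting osteoblast differentiation, and *Msx2* for its roles in ameloblasts and in skull bone.

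The proteins read DNA through a homeodomain, encoded by a homeobox of 180 bases or 60 codons. The stretch of the homeobox that encodes the DNA-reading helix is shown for 7 of the genes because it is the feature that unites the family, and because it shows how far their transcripts can still be told apart. The 48 bases are codons 45 to 60 of the homeobox in GENCODE transcripts of mm10, written 5′ to 3′ on the coding strand, and capitals mark codons 48 to 53, the core of that helix.
Dlx1: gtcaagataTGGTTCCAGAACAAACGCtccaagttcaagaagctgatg
Dlx2: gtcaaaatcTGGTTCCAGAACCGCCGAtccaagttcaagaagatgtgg
Dlx3: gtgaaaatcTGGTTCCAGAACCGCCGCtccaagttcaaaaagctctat
Dlx4: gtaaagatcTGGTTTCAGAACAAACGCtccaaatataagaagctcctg
Dlx5: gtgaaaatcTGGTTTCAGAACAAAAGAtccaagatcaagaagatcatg
Dlx6: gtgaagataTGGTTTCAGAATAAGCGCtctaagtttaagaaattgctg
Msx2: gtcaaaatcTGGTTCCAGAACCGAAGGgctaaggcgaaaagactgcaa
These stretches lie on chromosome 2 at chr2:71532264-71532311 on the plus strand for *Dlx1* and chr2:71544877-71544924 on the minus strand for *Dlx2*. On chromosome 11 they lie at chr11:95123409-95123456 on the plus strand for *Dlx3* and chr11:95141422-95141469 on the minus strand for *Dlx4*. On chromosome 6 they lie at chr6:6878441-6878488 on the minus strand for *Dlx5* and chr6:6867041-6867088 on the plus strand for *Dlx6*. For *Msx2* the stretch lies at chr13:53468370-53468417 on the minus strand. All 7 stretches are coding and exonic.

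Over the whole homeobox, the 15 pairs of Dlx genes shared between 66.1% and 81.7% of their bases. The longest run of identical bases in any of these pairs was 23, well under the read length of 75 bases. No stretch of 75 bases in the annotated transcripts of a member occurred in the transcripts of another member, so reads without mismatches could be assigned to a single member. In *Dlx6*, 10 of 2371 such stretches also occurred in *Klhl32* or *Gm45470* transcripts. On the opposite strand, 4.68% of the stretches of *Dlx1* occurred in *Dlx1as*, 1.90% of those of *Dlx6* in *Dlx6os2* or in transcripts of other loci, and 6 stretches of *Dlx4* in *Dlx4os*. The strand setting of the counting is not given in the sources used here. Reads of *Dlx1*, *Dlx4* and *Dlx6* and of their antisense partners may therefore not have been kept apart. *Msx1* and *Msx2* also overlap noncoding RNAs in RefSeq, *Msx1os* and *Gm33763*, without a shared stretch in the GENCODE transcripts.

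WT libraries held 24158960 to 26787359 counts, and those labelled *FcγRIIB*-/- 21453880 to 28991631. The 8 genes together had between 9090 and 16548 counts per library, and the lowest single value was 332 counts, for *Dlx4*. The targeted gene *Fcgr2b* was not lower under the knockout label (24.0 ± 8.28 CPM in WT, SD, n = 5, and 27.8 ± 2.90 CPM, SD, n = 4, adjusted p = 0.442 in edgeR's quasi-likelihood test). Groups are therefore named by their labels throughout. CPM is the count scaled to the library size after TMM normalization.

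WT replicate 5 stood apart from the other WT mice. It had the lowest level in WT of 8 of the 8 genes, and the lowest of all 9 mice for 7 of them. Its *Msx2* level was 50.1% of the mean of WT replicates 1 to 4, *Dlx4* 61.8%, *Msx1* 63.0% and *Dlx3* 69.5%, whereas *Dlx5* was at 86.7% and *Dlx6* at 92.1%. Among marker lists of cell types, described further down, it had the lowest sum in WT for ameloblasts, odontoblasts, chondrocytes, and osteoblasts and osteocytes. The osteoblast and osteocyte sum was 46839 CPM, beside at least 47695 CPM in the other WT mice. By mean log2 CPM, the same list was highest in WT replicate 5 among WT mice. The odontoblast list, by this mean, was at 8.98 in WT replicate 5, within the range of the other WT mice (8.86 to 9.20). The sums of WT replicate 5 were the highest in WT for keratinized epithelium, periodontal ligament, neutrophil and myeloid cells and osteoclasts. Its erythroid and B lineage sums lay within the range of the other WT mice. The genotype comparisons of the 8 genes, the ratios and the correlations are therefore given with and without WT replicate 5. Levels per kilobase and nearest genes are over all mice, as are counts, medians and sums of single gene lists unless stated.

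Set per kilobase of exon, so that genes can be compared, *Dlx3* had the highest level of the 8 in WT, 51.0 ± 8.61 CPM per kb (SD, n = 5). *Msx1* followed at 33.7 ± 6.30, *Msx2* at 22.1 ± 5.70, *Dlx2* at 18.5 ± 2.90 and *Dlx5* at 18.1 ± 1.21 CPM per kb. *Dlx6* at 8.34 ± 0.42, *Dlx1* at 8.26 ± 1.07 and *Dlx4* at 5.92 ± 1.26 CPM per kb were the lowest. Between neighbours in this order, the ranges over the WT mice overlapped except between *Dlx5* and *Dlx6*. Under the knockout label the order was the same but for *Dlx1* and *Dlx6*, which changed places, and there *Dlx3* (69.1 ± 6.35 CPM per kb, SD, n = 4) was above *Msx1* (42.5 ± 3.17) and *Msx1* above *Msx2* (30.8 ± 3.15) with no overlap between mice. The members of a genomic pair were not expressed alike per kilobase, with *Dlx3* above *Dlx4*, *Dlx2* above *Dlx1* and *Dlx5* above *Dlx6*, in each case with no overlap between the WT mice. Before division by length, *Dlx1* (36.4 to 52.6 CPM) and *Dlx2* (40.6 to 60.2 CPM) overlapped in WT. Their exon lengths were taken as 5396 and 2855 bases. The annotation used for counting is not given, so the gap between *Dlx1* and *Dlx2* depends on the lengths taken.

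**Figure D1:**
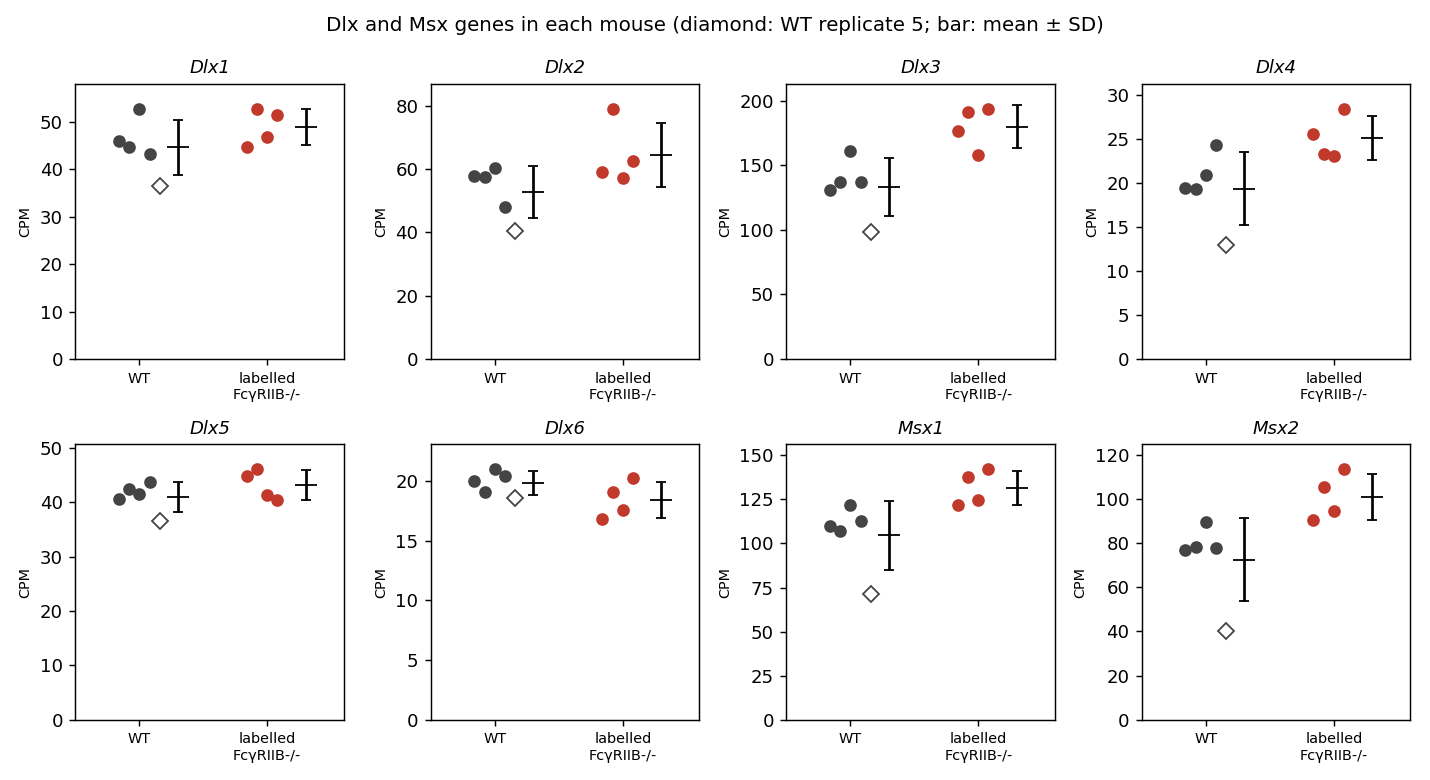
Level of each of the 8 genes in each mouse, in CPM on a linear axis from 0, for 5 WT mice and 4 mice labelled *FcγRIIB*-/-, with the mean and SD beside the points. The open diamond is WT replicate 5, the lowest WT mouse in every panel, and *Msx2* is the gene whose groups do not overlap.

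The genotypes were then compared gene by gene, which asks whether the jaw homeobox genes differ in the mandible of the lupus model. *Dlx3* was higher in mice labelled *FcγRIIB*-/- than in WT mice, 1.35-fold (95% confidence interval 1.12 to 1.64), and was the only member of the 8 that passed the test. *Msx2*, *Dlx4*, *Msx1* and *Dlx2* had larger means under the knockout label, by 1.39-fold, 1.29-fold, 1.26-fold and 1.22-fold, and did not pass. *Dlx1*, *Dlx5* and *Dlx6* had log2 fold changes between -0.11 and 0.13. Thus 1 of 8 members was called higher, against 14% of all 16329 tested genes called higher and 19.3% called lower by the same test, a share near the background. Before adjustment, 4 of the 8 members had p under 0.05, all with a higher mean under the label, as did 20.2% of all tested genes. When WT replicate 5 was left out, *Dlx3*, *Msx1* and *Msx2* were called higher, 3 of 8, against 13.3% of all tested genes called higher and 15.9% called lower. The median log2 fold change of the 8 genes was 0.31, beside 0.01 for all tested genes.

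*Dlx3*, a factor of enamel, dentin, bone and epidermis, was at 131, 137, 161, 137 and 98.5 CPM in WT replicates 1 to 5. The mice labelled *FcγRIIB*-/-, replicates 1 to 4, were at 176, 192, 158 and 194 CPM. Every mouse labelled *FcγRIIB*-/- but replicate 3 was above every WT mouse, and WT replicate 3 was above that mouse, so that the groups overlapped by this pair. The log2 fold change was 0.44 (SE 0.12, adjusted p = 0.0219, edgeR's quasi-likelihood test). Without WT replicate 5 it was 0.37 and passed (adjusted p = 0.0138). Without replicate 2 or replicate 4 of the labelled mice, *Dlx3* did not pass, at an adjusted p of 0.0559 and 0.0561.

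*Dlx4*, its partner on chromosome 11, was at 19.4, 19.3, 20.9, 24.3 and 13.0 CPM in WT replicates 1 to 5. The labelled mice were at 25.5, 23.3, 23.1 and 28.4 CPM in replicates 1 to 4. Only WT replicate 4 reached the labelled range. The log2 fold change was 0.37 (SE 0.15, adjusted p = 0.0815), and without WT replicate 5 it was 0.28 (adjusted p = 0.0625). Without WT replicate 4 it was 0.49 and passed (adjusted p = 0.0302). *Dlx4os*, the long noncoding RNA that overlaps *Dlx4*, had a log2 fold change of 0.24 (SE 0.16, adjusted p = 0.282).

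*Msx2*, known as a regulator of ameloblasts and of skull bone growth, was at 76.7, 78.2, 89.4, 77.6 and 40.3 CPM in WT replicates 1 to 5. It was at 90.6, 105, 94.4 and 113 CPM in replicates 1 to 4 of the labelled mice. Every labelled mouse was above every WT mouse, the only one of the 8 genes for which this held. Among all tested genes, 12.1% had every labelled mouse above every WT mouse. The log2 fold change was 0.48 (SE 0.19) and did not pass (adjusted p = 0.0702). The low value of WT replicate 5 widened the spread in WT, and without this mouse the log2 fold change fell to 0.35 while the adjusted p was 0.0129. It also passed without WT replicate 3, at 0.58 (adjusted p = 0.0412). The authors report that *Msx2* measured by quantitative PCR went opposite to its RNA-seq result, and their text does not give the direction of either.

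*Msx1*, which acts in tooth mesenchyme in the step from bud to cap, was at 110, 107, 122, 112 and 71.1 CPM in WT replicates 1 to 5 and at 122, 138, 124 and 142 CPM in labelled replicates 1 to 4. WT replicate 3 and labelled replicate 1 lay together at the border, and otherwise the groups were apart. The log2 fold change was 0.33 (SE 0.13, adjusted p = 0.0806). Without WT replicate 5 it was 0.24 and passed (adjusted p = 0.0316), and without WT replicate 3 it was 0.41 and passed (adjusted p = 0.0440). *Msx3*, a further gene of the family, had at most 3 counts in any library.

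*Dlx2*, which with *Dlx1* patterns the upper jaw and the molars, was at 57.9, 57.3, 60.2, 47.9 and 40.6 CPM in WT replicates 1 to 5 and at 59.0, 79.0, 57.0 and 62.6 CPM in labelled replicates 1 to 4. Labelled replicate 2 was well above all other mice, and labelled replicate 4 was also above every WT mouse. WT replicates 4 and 5 were below every labelled mouse, and the others overlapped. The log2 fold change was 0.29 (SE 0.13, adjusted p = 0.115), and without WT replicate 5 it was 0.23 (adjusted p = 0.148). *Dlx1* ranged from 36.4 to 52.6 CPM in WT and from 44.6 to 52.7 CPM under the label, with a log2 fold change of 0.13 (SE 0.10, adjusted p = 0.326), which was 0.09 without WT replicate 5 (adjusted p = 0.419). Its antisense RNA *Dlx1as* had a log2 fold change of -0.03 (SE 0.18, adjusted p = 0.902).

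*Dlx5* and *Dlx6*, the lower jaw pair, varied least among the WT mice. *Dlx5* was at 40.7, 42.5, 41.6, 43.7 and 36.5 CPM in WT replicates 1 to 5 and at 44.9, 46.1, 41.3 and 40.4 CPM in labelled replicates 1 to 4. Labelled replicates 1 and 2 were above every WT mouse and WT replicate 5 was below every labelled mouse, while the others overlapped. The log2 fold change was 0.07 with a 95% confidence interval from -0.08 to 0.23 (adjusted p = 0.443). *Dlx6* was at 20.03, 19.1, 20.97, 20.4 and 18.5 CPM in WT and at 16.8, 19.0, 17.5 and 20.2 CPM under the label. It was the only member with a lower mean there, with a log2 fold change of -0.11 and an interval from -0.28 to 0.07 (adjusted p = 0.317). *Dlx6os1*, the long noncoding RNA that overlaps *Dlx6*, had a log2 fold change of -0.05 (SE 0.10, adjusted p = 0.740). For *Dlx5* and *Dlx6*, the coefficient of variation within WT was 6.67% and 5.03%, against 25.8% for *Msx2* and 21.2% for *Dlx4*. Under the label it was 6.33% for *Dlx5* and 8.28% for *Dlx6*, the latter above *Msx1* at 7.48% and *Dlx1* at 7.87%. Counting error alone came to 4.38% of the WT level of *Dlx6*, close to its whole spread. Over the 8 mice other than WT replicate 5, the log2 fold changes were 0.06 for *Dlx5* (adjusted p = 0.534) and -0.11 for *Dlx6* (adjusted p = 0.349).

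**Figure D2:**
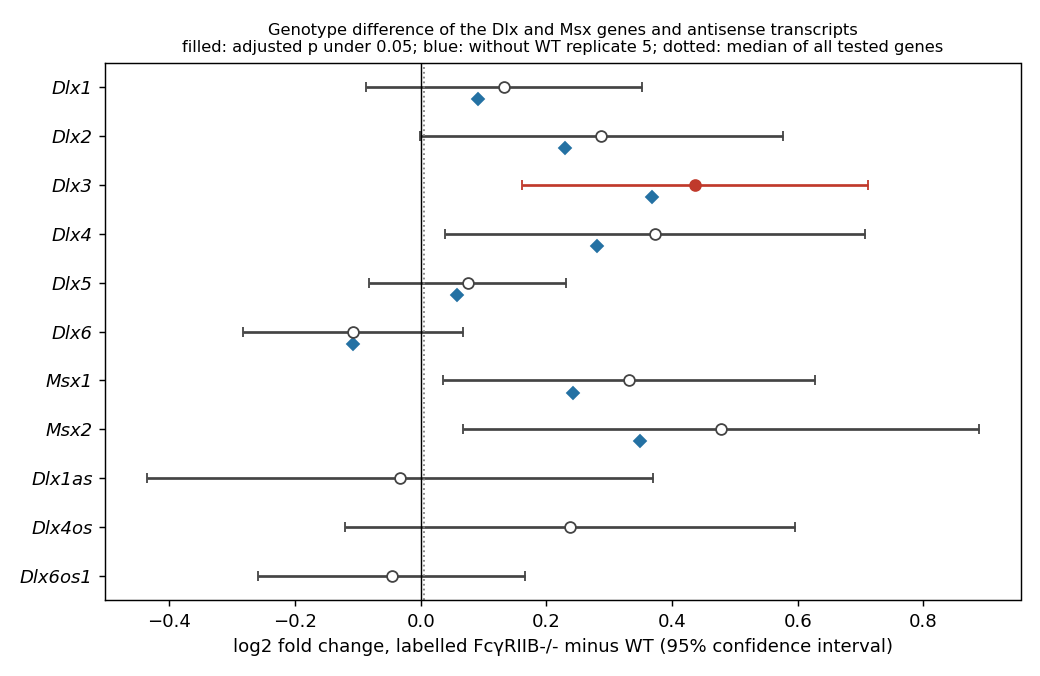
Log2 fold change (labelled *FcγRIIB*-/- minus WT) of the 8 genes and of 3 antisense or overlapping transcripts, with 95% confidence intervals from edgeR's fit over 9 mice. The filled point is *Dlx3*, at 0.44. Blue diamonds, drawn for the 8 genes only, give the value without WT replicate 5, which lies between -0.11 and 0.37.

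The ratio of partner genes within a mouse does not depend on the library size, and asks whether the balance of a pair shifted. Each difference was tested by two-sided exact permutation, which has 126 splits of the mice, and adjusted over the 4 ratios. The log2 ratio of *Msx1* to *Msx2* counts had a WT mean of 0.55 ± 0.15 (SD, n = 5) and a mean of 0.38 ± 0.04 (SD, n = 4) under the label, a difference of -0.17. Every labelled mouse was below every WT mouse, and the difference did not pass after adjustment (exact permutation p = 0.0317, adjusted p = 0.127). Without WT replicate 5, whose ratio was 0.82, the difference was -0.10 (exact permutation, adjusted p = 0.114, the smallest that the 70 splits of 8 mice allow for a single one of the 4 ratios).

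The other ratios overlapped between the groups. That of *Dlx5* to *Dlx6* was 1.05 ± 0.08 in WT (SD, n = 5) and 1.23 ± 0.17 under the label (SD, n = 4), a difference of 0.18 (exact permutation, adjusted p = 0.138). That of *Dlx1* to *Dlx2* was -0.24 ± 0.10 in WT and -0.39 ± 0.14 under the label, a difference of -0.15 (exact permutation, adjusted p = 0.138). That of *Dlx3* to *Dlx4* differed by 0.05 (exact permutation, adjusted p = 0.675), and its sign turned without WT replicate 4 (-0.02) or without labelled replicate 2 (-0.01). Without WT replicate 5, the differences were 0.17 for *Dlx5* to *Dlx6*, -0.13 for *Dlx1* to *Dlx2* and 0.09 for *Dlx3* to *Dlx4*, with adjusted p-values of 0.286, 0.305 and 0.486 (exact permutation).

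**Figure D3:**
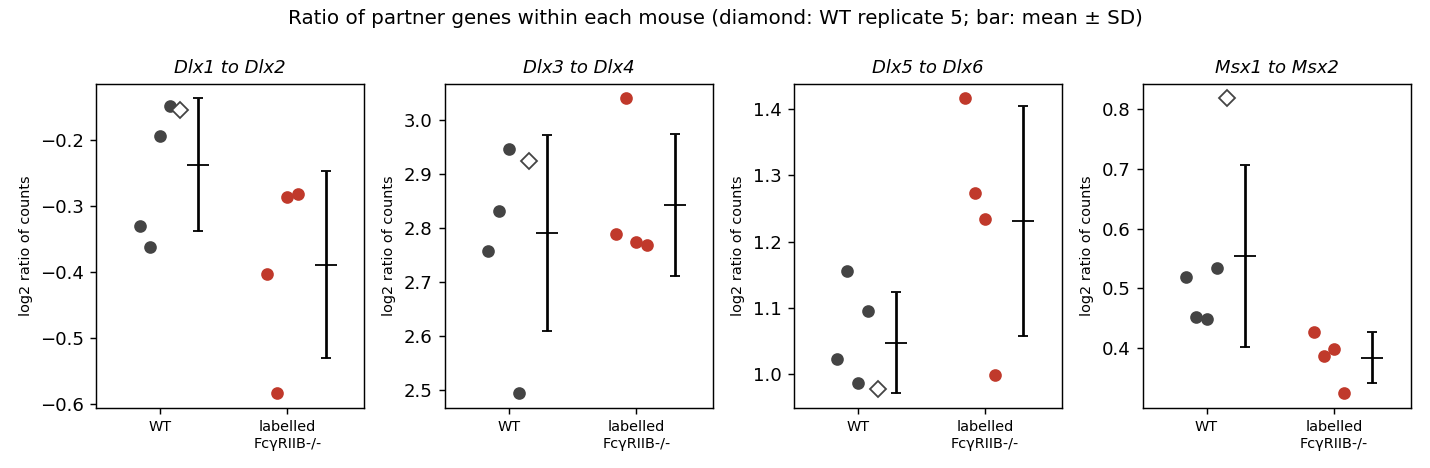
Log2 ratio of the counts of partner genes in each mouse, with the mean and SD beside the points and WT replicate 5 as an open diamond. The axes do not start at 0. Labelled mice lie between 0.32 and 0.43 for *Msx1* to *Msx2*, below all WT mice, and the groups overlap in the other panels.

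Whether the 8 genes vary together among mice of a genotype was examined over the 9 mice on deviations from the genotype means. Exact permutation within genotype, over 2880 orders, gave the p-values, adjusted over the 28 pairs. Pearson's r was above 0 for 28 of the 28 pairs, with a median of 0.73, and 12 pairs passed. *Msx1* and *Msx2* were closest, with r = 0.99 (Spearman's rho 0.87, exact permutation, adjusted p = 0.0122 for r and 0.0462 for rho). *Msx2* also varied with *Dlx3* (r = 0.93, rho 0.88, exact permutation, adjusted p = 0.0208 for r), and *Dlx1* with *Dlx2* (r = 0.87, rho 0.88, exact permutation, adjusted p = 0.0122 for r). The lowest adjusted p of the 28 pairs was that of *Dlx6* with *Msx1* (r = 0.70, rho 0.87, exact permutation, adjusted p = 0.00972 for r). *Dlx5* and *Dlx6* had r = 0.12 (rho 0.10, exact permutation, adjusted p = 0.782), although they share a locus.

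WT replicate 5 decided the count of pairs. Without it, over 8 mice, 21 of the 28 pairs had r above 0, the median r was 0.48, and the lowest adjusted p was 0.0972 (576 orders, which allow a single pair 0.0486), while 8 pairs had p under 0.05 before adjustment (exact permutation). Without WT replicate 3, the highest WT mouse for most of these genes, 1 pair passed, *Dlx6* with *Msx1* (r = 0.65, exact permutation, adjusted p = 0.0486). Without the 2 mice farthest from the median of the first gene, r was 0.96 for *Msx1* with *Msx2*, 0.82 for *Dlx3* with *Msx2* and 0.78 for *Dlx1* with *Dlx2*, whereas it was -0.07 for *Dlx1* with *Dlx4* (0.61 over all mice) and -0.15 for *Dlx3* with *Dlx5* (0.64 over all mice). The latter relations rest on those mice.

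**Figure D4:**
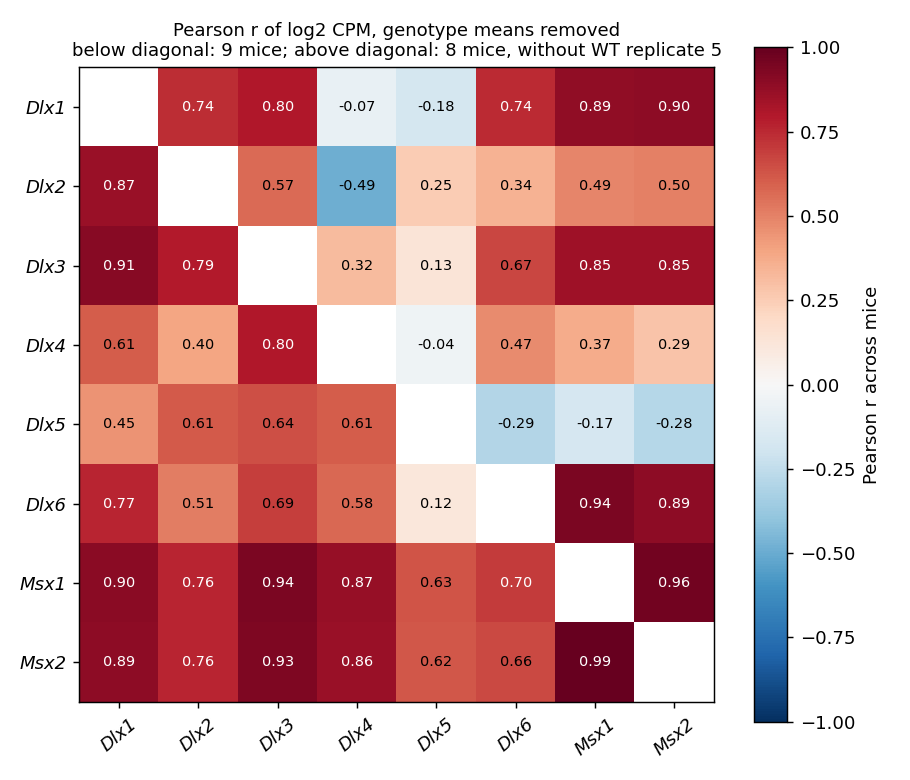
Pearson's r between the log2 CPM of the 8 genes after genotype means were removed, over 9 mice below the diagonal and over 8 mice without WT replicate 5 above it. *Msx1*, *Msx2*, *Dlx1* and *Dlx3* keep r of at least 0.80 with each other above the diagonal, where *Dlx4* and *Dlx5* have values near or below 0 with several genes. *Dlx6* has r = 0.94 with *Msx1* and 0.89 with *Msx2* above the diagonal.

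Among 12960 tested genes whose log2 CPM averaged 2 or more, those whose pattern over the 9 mice was nearest to each member were listed as a description, since they were picked from so many. The nearest to *Msx1* was *Msx2*, followed by *Sp6* (r = 0.99), a zinc finger factor of dental epithelium, and *Ildr2* (r = 0.99). The nearest to *Msx2* after *Msx1* were *Gga2* (r = 0.99) and *Tgfb3* (r = 0.99), a growth factor of the palate. *Dlx3* was nearest to *Ptpru* (r = 0.98), *Ift46* (r = 0.96) and *Tshz2* (r = 0.96), and *Dlx1* to *Ift46* (r = 0.98), *Upf1* (r = 0.98) and *Gal3st4* (r = 0.97). For *Dlx2* they were *Lsm11* (r = 0.97), *Zbtb39* (r = 0.95) and *Irf2bpl* (r = 0.94), and for *Dlx4* *Mpv17* (r = 0.98), *Tro* (r = 0.98) and *Tbc1d4* (r = 0.97). *Dlx5* was nearest to *Mthfd2l* (r = 0.99), *Adgra3* (r = 0.96) and *Brinp1* (r = 0.95), and *Dlx6* to *Hey2* (r = 0.98), *Tatdn3* (r = 0.97) and *Stx16* (r = 0.97).

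The neighbours of the genes on the chromosome included 2 genes that passed. *Metap1d*, 2919 bases before *Dlx1* in RefSeq coordinates of GRCm38, rose under the label (log2 fold change 0.54, SE 0.12, adjusted p = 0.00646), and *Itga3*, an integrin chain of epithelia 43273 bases before *Dlx3*, rose as well (log2 fold change 0.34, SE 0.08, adjusted p = 0.00856). Both passed without WT replicate 5, at 0.50 and 0.33. The Dlx pairs themselves are separated by 9426 bases (*Dlx1* and *Dlx2*), 15150 bases (*Dlx3* and *Dlx4*) and 9830 bases (*Dlx5* and *Dlx6*). *Dlx6os2* and *Msx1os*, which overlap *Dlx6* and *Msx1*, had too few counts to be tested, 53 and 32 over all libraries.

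The genes around the factors were described by 7 lists with 97 genes, of which 92 were tested. Of these, 11 (12%) rose and 19 (20.7%) fell under the label, shares close to the 14% and 19.3% of all tested genes. With WT replicate 5 left out, 13 rose and 15 fell, and of the called genes named here *Twist1* (adjusted p = 0.0630), *Mapk14* (0.0670), *Ibsp* (0.0793) and *Pax3* (0.0560) did not pass. Signals that induce the Dlx and Msx genes numbered 20 tested, with a median log2 fold change of 0.05. *Bmp4*, the ligand that induces *Msx1* and *Msx2* in tooth and jaw, was the 1 that rose (0.44, SE 0.13, adjusted p = 0.0262). Its type II receptor *Bmpr2* (-0.93, SE 0.24, adjusted p = 0.0139), the receptor *Fgfr2* (-0.31, SE 0.08, adjusted p = 0.0122) and *Twist1* fell. Of 9 proteins that bind or modify the factors, 2 fell and 7 did not pass (median -0.08), with *Spen*, a corepressor that binds Msx2, at -0.61 (SE 0.08, adjusted p = 0.000697) and the kinase *Mapk14* at -0.21 (SE 0.06, adjusted p = 0.0205).

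Targets in bone and in teeth had medians of opposite sign. Of 10 osteoblast targets, 4 fell and 6 did not pass (median log2 fold change -0.23). The 4 were *Osr2* (-0.42, SE 0.10, adjusted p = 0.00867), *Wif1* (-0.39, SE 0.09, adjusted p = 0.0108), the bone matrix gene *Ibsp* (-0.64, SE 0.22, adjusted p = 0.0426) and the osteoblast factor *Sp7* (-0.25, SE 0.07, adjusted p = 0.0160). Of 11 dental targets, 4 rose and 7 did not pass (median 0.43). These 4 are enamel matrix genes made by ameloblasts, among them *Amelx* (7275 ± 2730 CPM in WT, SD, n = 5, and 18474 ± 5418 CPM under the label, SD, n = 4, adjusted p = 0.00757) and *Enam* (log2 fold change 0.99, SE 0.24, adjusted p = 0.0116), beside *Ambn* and *Odam*.

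Epidermal targets of *Dlx3* counted 10 tested, of which 5 fell and 1 rose, with a median of -1.07. Those that fell included the cornified layer genes *Lor* (-6.75, SE 0.54, adjusted p = 7.65e-05) and *Krt10* (-4.80, SE 0.89, adjusted p = 0.00314). The keratin *Krt5* of basal epithelium rose (0.39, SE 0.13, adjusted p = 0.0356). *Dlx3* itself was higher under the label, opposite in sign to the targets of the cornified layer. *Flg*, another gene of that layer, fell from 7.27 ± 7.88 CPM (SD, n = 5) to 0.0350 ± 0.0701 CPM (SD, n = 4, adjusted p = 0.00341 in edgeR), and the size of its fold depends on the prior count.

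Among 12 jaw patterning targets, *Gsc* rose (0.40, SE 0.13, adjusted p = 0.0402) and 10 did not pass (median -0.02). *Hand1*, the lower jaw target with the largest change, was at -0.71 (SE 0.35, adjusted p = 0.143). Its level was low in both groups, at 0.77 CPM in WT and 0.48 CPM under the label. Of 20 other homeobox and patterning genes of jaw and tooth, 4 rose and 4 fell (median -0.05). *Irx5* (0.57, SE 0.10, adjusted p = 0.00240) was among those that rose. *Pax9*, which acts with *Msx1* in tooth mesenchyme, fell (-0.70, SE 0.09, adjusted p = 0.000720), and so did *Pax3* (-1.15, SE 0.35, adjusted p = 0.0268), which was low in both groups.

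**Figure D5:**
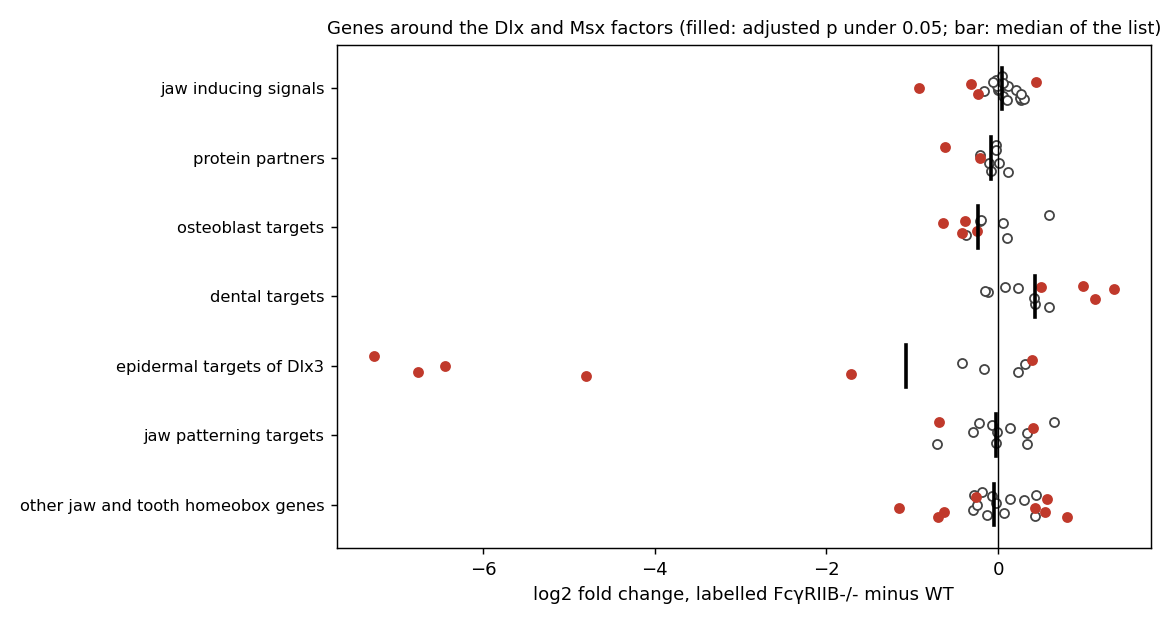
Log2 fold change (labelled *FcγRIIB*-/- minus WT) of each tested gene in 7 lists around the factors, with filled points at an adjusted p under 0.05 and a bar at the list median. The medians run from -1.07 for epidermal targets of *Dlx3* to 0.43 for dental targets.

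Several marker lists of cell types in the mandible differed between genotypes, and others had few or no called genes. These lists share genes with the target lists above and are not independent of them. *Amelx*, *Enam*, *Ambn* and *Odam* are both dental targets and ameloblast markers. *Lor*, *Krt10*, *Flg* and *Krt5* are both epidermal targets and markers of keratinized epithelium, and *Ibsp* and *Sp7* are in both osteoblast lists. The 7 ameloblast markers, 5 of which rose, summed to between 9528 and 25812 CPM in WT and between 29153 and 50412 CPM under the label, and WT replicate 5 was the lowest. Of 17 tested markers of keratinized epithelium, 12 fell and 1 rose, with sums between 6907 and 24974 CPM in WT, highest in WT replicate 5, and between 5430 and 6862 CPM under the label. Of 9 markers of periodontal ligament, 6 fell, with sums between 24500 and 39186 CPM in WT, highest in WT replicate 5, and between 11213 and 16297 CPM under the label. All 13 neutrophil and myeloid markers fell, with sums between 1245 and 3754 CPM in WT, highest in WT replicate 5, and between 167 and 462 CPM under the label. Skeletal muscle markers rose for 8 of 14, from between 8873 and 20452 CPM in WT to between 21676 and 38133 CPM under the label. The osteoblast and osteocyte markers had 1 gene that rose and 6 that fell among 15, the odontoblast markers 1 that fell among 8. Markers of other marrow cells fell for 8 of 8 tested erythroid genes, 9 of 10 B lineage genes and 7 of 9 osteoclast genes. None of 6 Schwann cell markers passed (median log2 fold change 0.09), and of 6 endothelial markers 1 fell (median 0.07), as did 1 of 7 chondrocyte markers (median 0.13). Without WT replicate 5, 4 osteoblast and osteocyte markers, 5 periodontal ligament markers and 10 B lineage markers fell. In the same fit, 6 skeletal muscle markers and 1 odontoblast marker rose. All other counts of called markers given here stayed the same.

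The members were set against the mean log2 CPM of 7 of these lists over the 9 mice, with genotype means removed, in 56 relations that were chosen after the values had been seen. After adjustment, 2 passed. *Msx2* varied with the ameloblast markers (r = 0.88, rho 0.88, exact permutation, adjusted p = 0.0389 for r and 0.0778 for rho; r = 0.77 without the 2 mice farthest from the median). *Dlx1* varied against the neutrophil and myeloid markers (r = -0.87, rho -0.95, exact permutation, adjusted p = 0.0389 for r and 0.0778 for rho; r = -0.78 without the 2 farthest mice). *Dlx3* had r = 0.82 with the ameloblast markers and did not pass (rho 0.73, exact permutation, adjusted p = 0.0972). Without WT replicate 5, r was 0.71 for *Msx2* and 0.52 for *Dlx3* with the ameloblast markers and -0.85 for *Dlx1* with the neutrophil and myeloid markers, and none of the 56 relations passed, where 8 mice allow a single relation no adjusted p under 0.0972 (exact permutation). The part of these cell types in the differences of *Dlx3* and *Msx2* between genotypes was not tested.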

How the data were processed

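RNA of whole mandibles was sequenced as 75 bp single-end reads from a directional poly(A) library, 1 library per mouse (5 WT, 4 labelled *FcγRIIB*-/-). After trimming (Trim Galore), the authors aligned the reads to mm10 using HISAT, version 02.1.0 in the submitters' processing notes, and obtained counts per gene from featureCounts. The deposited values are raw counts, and annotation and strand setting are not given in the sources used here. The table holds 1 further column of per-sample values that matches no sample and was not used, and 1030 rows without a symbol.

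Groups and replicate numbers came from the labels. Counts were tested with edgeR 4.0.16 in R 4.3.3 (filterByExpr with a minimum count of 10, TMM, quasi-likelihood test of genotype without covariates, Benjamini-Hochberg over 16329 genes, threshold 0.05). SE is the size of the log2 fold change divided by the root of the F statistic. Prior counts were 2 for log2 CPM and 0.5 for partner ratios. Levels per kilobase and homeoboxes used GENCODE exons of mm10, and distances RefSeq of GRCm38. p-values measure the spread between these mice, of which counting error is a part (1.55% to 4.84% of the mean level of a member in a group). No pair of libraries within a group had near-identical counts. The test and the permutation code were tested on simulated data. Alternatives were other size factors, other count filters, DESeq2 1.42.0, a replicate block, a stricter threshold and leaving out each mouse. A fit of WT replicates 1 to 4 with the replicate block, and relations with marker lists without each mouse, were added after seeing the data.

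The 8 genes and the gene lists were chosen with earlier results of these data known. Named genes are the 8 members, transcripts in their loci, *Msx3*, *Fcgr2b*, adjacent genes, the 2 genes with the lowest adjusted p and the 1 with the largest change in each list, and the 3 nearest genes of each member. A few items that the rule would name are left out here. *Metap1d* and *Itga3* are the adjacent genes that passed. *Bmp4*, *Twist1*, *Sp7*, *Ambn*, *Odam* and *Krt5* were named after their values were seen.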

Additional observations from a re-analysis of the deposited data

Results flagged for a closer look

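The gap between the highest or lowest mouse and its nearest neighbour, relative to the range of its group, was examined in 30 groups (8 genes, 3 antisense or overlapping transcripts and 4 ratios, in each genotype). In 4 of them it was above Dixon's 95% critical value (0.71 for 5 mice, 0.829 for 4), where chance exceeds it in about 1 of 20 groups.

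*Msx2* in WT replicate 5, at 40.3 CPM, was far from the next WT mouse at 76.7 CPM (gap ratio 0.741). In the same mouse the log2 ratio of *Msx1* to *Msx2* was 0.82, against 0.53 in the next (gap ratio 0.767). *Dlx4os* in labelled replicate 4 was at 45.0 CPM, against 33.3 CPM in the next labelled mouse (gap ratio 0.872). The log2 ratio of *Dlx3* to *Dlx4* in labelled replicate 2 was 3.04, against 2.79 in the next (gap ratio 0.927).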

How the results depend on the processing

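The number of members called, 1 over all mice, was small and depended on the setting. It was 0 with library totals alone, 4 with DESeq2's Wald test (*Dlx3*, *Dlx4*, *Msx1* and *Msx2*, where 17.4% of all genes were called higher), 2 with the replicate block (*Dlx3* and *Msx2*), 3 with WT replicates 1 to 4 and the replicate block together (*Dlx3*, *Dlx4* and *Msx2*, a setting added after seeing the data), 0 at an adjusted p under 0.01, and between 0 and 3 with each mouse left out (0 without labelled replicate 2 or 4, 3 without WT replicate 3 or 5). It stayed at 1 with RLE size factors and under both other count filters. *Dlx3* was called in 7 of 9 fits that left out a mouse. With library totals alone its adjusted p was 0.0611, and *Dlx5* turned to a log2 fold change of -0.0016. Of the other log2 fold changes of the members, none turned sign in the settings run. Genes called in the lists around the factors numbered 30, between 24 and 30 with each mouse left out, 25 with the replicate block, 38 with DESeq2 and 13 at an adjusted p under 0.01. The log2 ratio of *Dlx3* to *Dlx4* was between -0.022 and 0.091 with each mouse left out, and the other ratios kept their sign. The 12 pairs of members that passed became 0 to 12 with each mouse left out (1 without WT replicate 3, 0 without WT replicate 5) and stayed at 12 with a prior count of 0.5. The 2 relations with marker lists that passed became 4 without WT replicate 2, and 0 when any other single mouse was left out. With 8 mice, 1 relation on its own cannot pass the threshold, but several strong ones together can, as they did without WT replicate 2. Over all tested genes, mice sharing a replicate number did not deviate together (r between -0.11 and 0.10). A correlation over all genes can miss a batch that touches few of them, and whether the numbers mark a batch was not tested. The causes of these changes were not tested.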
